A study of Mus musculus with 39 samples.

Results

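In mice that lost Prkar1a through a Cre recombinase driven by the Amh promoter, 149 genes were higher and 17 were lower in the whole testis at 2 weeks of age than in wild-type mice. The comparison set 4 arrays of this line, called srKO (Amh:Cre with floxed Prkar1a), against 8 arrays of wild-type mice (WT), which is 12 of the 39 arrays of the series. Each array is a labelled biological replicate of whole testis RNA on an Affymetrix mouse gene array. The members were all probe sets with a single gene symbol, 1 per gene, and 19007 genes passed a filter on dim probe sets. Results were also taken against WT replicates 1 to 4 and WT replicates 5 to 8 on their own. Other groups enter where stated. They are prKO (Sf1:Cre with floxed Prkar1a, 4 arrays at 2 weeks), lrKO (Cyp11a1:Cre with floxed Prkar1a, 4 arrays at 2 weeks), and srKO and WT at 2 months (4 and 8 arrays). The prKO and lrKO arrays at 2 weeks were also in the main fit, where they add to the estimate of each gene's spread. With only srKO and WT in the fit, 38 genes were higher and 1 was lower. The study's design text calls the wild-type mice littermates, and nothing ties a WT array to a litter or to 1 of the 3 lines.

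Prkar1a encodes the regulatory subunit RIα of protein kinase A (PKA). Regulatory subunits hold the catalytic subunits inactive until cyclic AMP (cAMP) binds, so a cell without RIα has catalytic subunits that are less restrained. In the testis, cAMP carries the signal of follicle-stimulating hormone (FSH) in Sertoli cells, the somatic cells that enclose and feed the germ cells, and of luteinizing hormone in Leydig cells, which make androgens. The Amh promoter is active in Sertoli cells, and a whole testis also holds cells in which this promoter is silent. At 2 weeks the seminiferous cords hold spermatogonia and the first germ cells in meiosis. Values are log2 intensities, and a difference of 1 is a doubling. A gene is "called" when the Benjamini-Hochberg adjusted p over all 19007 genes is under 0.05.

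Sertoli cell markers were bright in both groups. The mean of the 24 tested Sertoli identity genes was 9.01 to 9.22 on the srKO arrays and 8.91 to 9.17 on the WT arrays. One protocol label names the adrenal gland as the source of RNA. Cyp21a1, Cyp11b1 and Cyp11b2, which define the adrenal cortex, lay between 4.26 and 5.16 on every array of both groups. That is near the filter level of 4.62, and none of the 3 was called. Mrap, the other tested member of the adrenal cortex list, was well above that level. It lay between 6.82 and 7.92 on every array of both groups and was not called either (-0.12, adjusted p = 0.83).

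Prkar1a itself was lower in srKO. It read 8.48, 8.36, 8.52 and 8.64 on the srKO arrays, and 8.84, 8.97 and 9.14 as the lowest, median and highest of the 8 WT arrays. The groups did not overlap. The log2 difference was -0.48 ± 0.07 (SE; adjusted p = 0.0022, limma), a fold of 1.4. In whole testis, fewer cells of a type and less RNA per cell cannot be told apart. Prkar1a was lower against WT replicates 1 to 4 (-0.38) and against WT replicates 5 to 8 (-0.58).

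**Figure D1:**
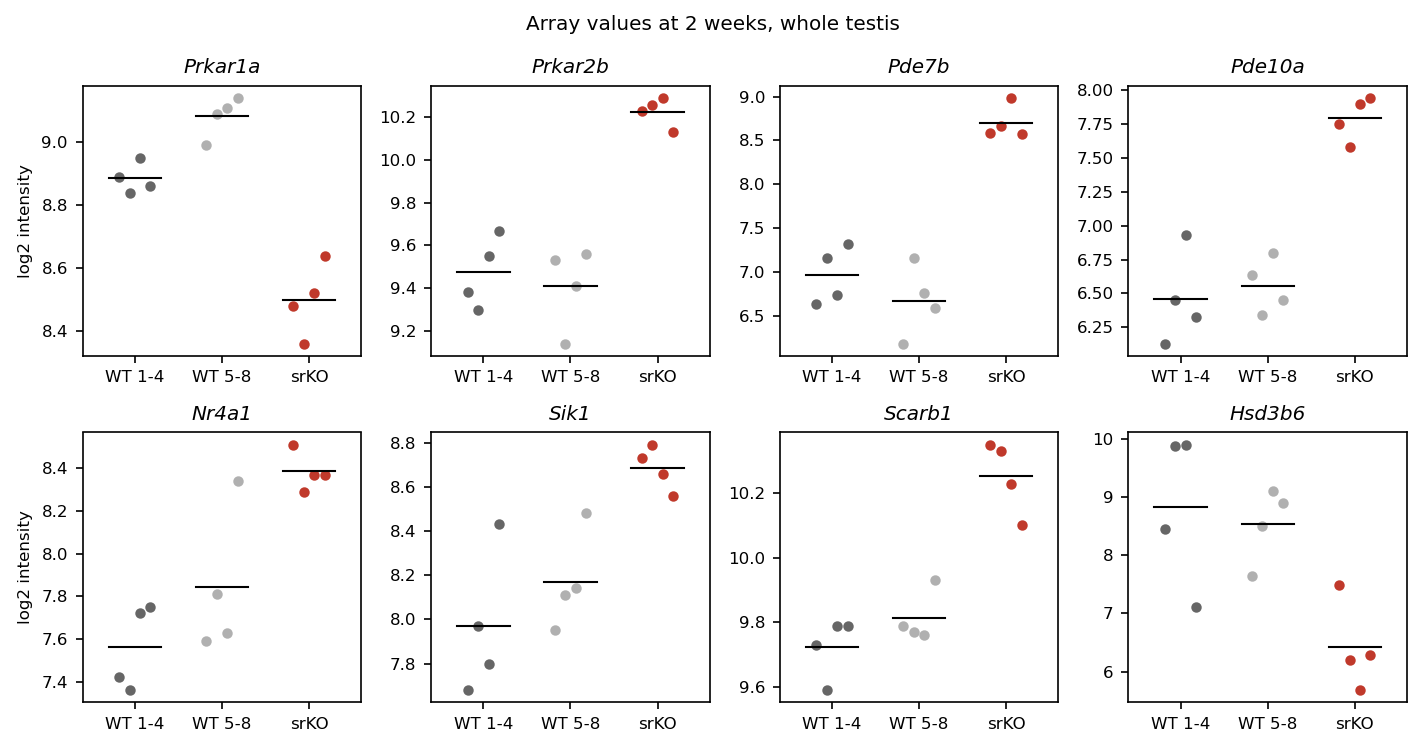
Log2 intensity of 8 genes on each array at 2 weeks (vertical axis, its range differs between panels), for WT replicates 1 to 4, WT replicates 5 to 8 and srKO. Points are arrays and lines are group means; Prkar1a is lower on all 4 srKO arrays (8.36 to 8.64) than on any WT array, and Pde7b is higher (8.57 to 8.98 against at most 7.32).

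Over all genes, 166 of 19007 were called, or 0.873%, of which 0.784% were higher and 0.0894% lower. The median log2 difference was 0.01, and 51.9% of genes were above 0. At an unadjusted p under 0.05 there were 2848 genes, or 15%. Most called changes were small: among the 149 called higher the fold ran from 1.14 to 3.67 with a median of 1.31. Only 4 of the 166 reached a 2-fold difference, which were Pde7b and Pde10a (higher) and Hsd3b6 and Mir101c (lower). That count was 24 without srKO replicate 4, 9 without WT replicate 5, 7 without WT replicate 4 and 2 without srKO replicate 2. All 4 srKO arrays lay above all 8 WT arrays for 119 of the 149 genes called higher, and 1.38% of all tested genes had this order. All 4 lay below for 7 of the 17 called lower, and 0.268% of all tested genes had that order. The count depends on single arrays. It was 33 without srKO replicate 1, 38 without srKO replicate 2, 57 without srKO replicate 3 and 362 without srKO replicate 4. Of the WT arrays, leaving out replicates 2, 3, 5, 6 and 7 gave 84, 103, 318, 91 and 94.

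The 8 WT arrays were split in 2 sets of 4 by replicate number, and these sets differ. The split does not follow the likeness of the arrays throughout. WT replicate 5 had a mean correlation of 0.982 with WT replicates 1 to 4 and 0.972 with its own set. WT replicate 2 was at 0.985 with WT replicates 5 to 8 and 0.976 with its own set, and WT replicate 3 at 0.985 and 0.984. The remaining WT arrays correlated better with their own set. In the fit of all 4 genotypes 1132 genes were called between WT replicates 5 to 8 and 1 to 4, and 221 in a fit of the 8 WT arrays alone, which was added after seeing the data. Of the 166 genes, 5 and 1 were among them. A difference between the sets widens a gene's spread in the main fit and makes a call less likely, so this overlap is a description only. All 166 kept their direction against each set. They were chosen on their difference from both sets together, with the same srKO arrays, which favours a shared direction. Against WT replicates 1 to 4, 4.6% of all genes and 144 of the 166 were called. Against WT replicates 5 to 8, 0.484% of all genes and 52 of the 166 were called. Called against each set were 44 genes, of which 42 were higher (among them Pde7b, Pde10a, Pappa, Kcnma1, Wfdc1, Cbarp, Prkar2b, Nrcam and Scarb1) and 2 were lower (Prkar1a and Hsd3b6).

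**Figure D2:**
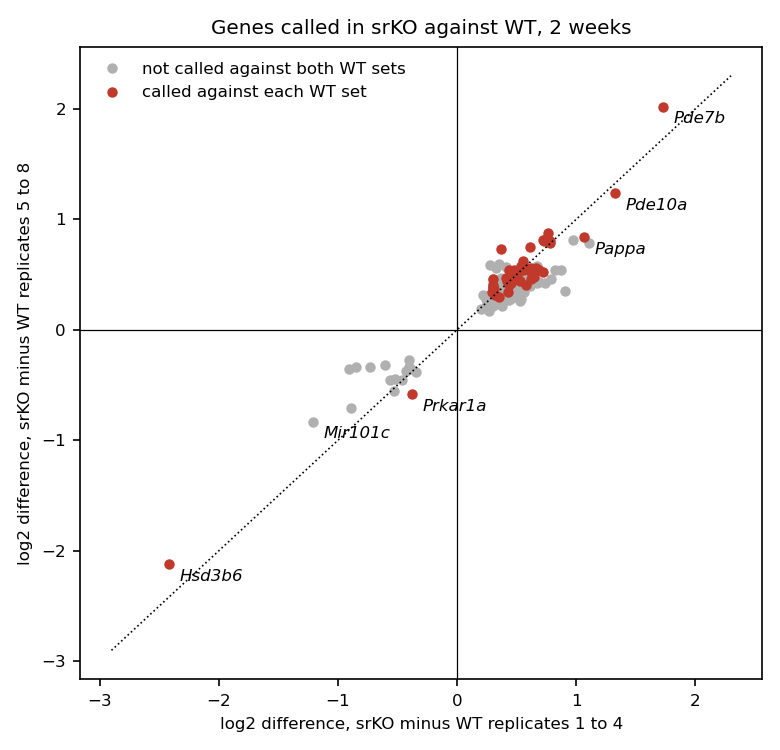
Log2 difference of srKO from WT replicates 1 to 4 (horizontal) and from WT replicates 5 to 8 (vertical) for the 166 called genes; points are genes, red where called against each WT set (44 genes), and the dotted line marks equal differences. All 166 points share their sign on both axes, which is favoured by their choice on all 8 WT arrays together.

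The largest rises were of cAMP phosphodiesterases, and a PKA subunit rose too. Of 8 tested PKA subunits and inhibitors, Prkar2b was called higher and Prkar1a lower. Prkar2b encodes RIIβ, another regulatory subunit. It read 10.23, 10.26, 10.29 and 10.13 on the srKO arrays and 9.14, 9.47 and 9.67 as the lowest, median and highest WT values. The groups did not overlap, and the log2 difference was 0.78 ± 0.12 (adjusted p = 0.0023). The catalytic subunits did not pass the test: the differences were 0.10 for Prkaca (adjusted p = 0.47) and 0.02 for Prkacb (adjusted p = 0.93). The regulatory subunits Prkar2a (0.04) and Prkar1b (0.02) and the inhibitors Pkia (0.28) and Pkib (-0.03) were not called either. The list's median was 0.03.

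Phosphodiesterases break down cyclic nucleotides, and 2 of 16 tested were called, both higher, against 0.784% of all genes called higher. Pde7b, a cAMP-specific enzyme, read 8.58, 8.66, 8.98 and 8.57 on the srKO arrays and 6.19, 6.75 and 7.32 as the lowest, median and highest WT values. That is a gap of over 1 log2 unit between the highest WT and the lowest srKO array. The difference was 1.87 ± 0.20, a fold of 3.67 (adjusted p = 4.9e-05), the largest rise of all called genes. Pde10a, which breaks down both cAMP and cyclic GMP, read 7.75, 7.58, 7.90 and 7.94 against 6.13, 6.45 and 6.93. It also had no overlap, with a difference of 1.28 ± 0.14 and a fold of 2.43 (adjusted p = 4.9e-05). Pde4d was next at 0.35 (adjusted p = 0.14), and Pde1c was the lowest at -0.61 (adjusted p = 0.34). The median of the 16 was 0.03, with 10 above 0, against 51.9% of all genes above 0.

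Of 13 tested adenylyl cyclases and other cAMP effectors, 0 were called, and 1 had an unadjusted p under 0.05. Their log2 differences ran from -0.24 (Adcy10) to 0.25 (Adcy5).

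Immediate responders to cAMP rose in part. Of 26 tested genes of the fast cAMP and CREB list, Nr4a1 and Sik1 were called higher, and the list had a median of 0.10 with 20 members above 0. Over all genes 0.784% were called higher and 51.9% were above 0. Nr4a1, an orphan nuclear receptor, read 8.51, 8.29, 8.37 and 8.37 in srKO and 7.36, 7.68 and 8.34 as the lowest, median and highest WT values. The groups overlap through WT replicate 8, at 8.34, above srKO replicate 2. The difference was 0.68 ± 0.13 (adjusted p = 0.017), and the contrast with only WT replicates 5 to 8 missed the threshold (0.54, adjusted p = 0.083). Sik1, a salt-inducible kinase that restrains CREB co-activators, read 8.73, 8.79, 8.66 and 8.56 against 7.68, 8.04 and 8.48, without overlap. Its difference was 0.62 ± 0.12 (adjusted p = 0.017), and it was called against each WT set. The other fast genes had values such as 0.45 for Nr4a3 (adjusted p = 0.20), 0.17 for Fos (adjusted p = 0.49), -0.29 for Crem (adjusted p = 0.54) and -0.60 for Ptgs2 (adjusted p = 0.67).

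CREB binds the palindrome TGACGTCA and its half-site TGACG, which reads CGTCA on the other strand. RefSeq windows from 250 bases before to 50 bases after a gene's start (build GRCm38.p6) were searched on both strands, and half-sites inside the palindrome were counted too. Among the 20 largest rises that the naming rule picked, only Nr4a1 and Cbarp had a half-site in a window of the table, and none had the palindrome. The table holds no window for Pappa, Shisa6, Wfdc1 and Sik1. Nr4a1 is shown because it holds 4 half-sites, and Stk38l and Alg13 because they are the called-higher genes with the palindrome. Matches are in capitals, 5′ to 3′ in the direction of transcription, for chr15:101266596-101266895 (plus strand), chr6:146724680-146724979 (plus strand) and chrX:144317716-144318015 (plus strand).
Nr4a1: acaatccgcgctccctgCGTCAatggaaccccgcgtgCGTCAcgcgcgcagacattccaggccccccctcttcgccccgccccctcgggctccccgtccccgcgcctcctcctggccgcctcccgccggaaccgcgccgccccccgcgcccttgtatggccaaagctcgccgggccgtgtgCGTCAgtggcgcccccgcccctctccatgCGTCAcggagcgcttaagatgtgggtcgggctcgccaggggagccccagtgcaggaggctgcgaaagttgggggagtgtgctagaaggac
Stk38l: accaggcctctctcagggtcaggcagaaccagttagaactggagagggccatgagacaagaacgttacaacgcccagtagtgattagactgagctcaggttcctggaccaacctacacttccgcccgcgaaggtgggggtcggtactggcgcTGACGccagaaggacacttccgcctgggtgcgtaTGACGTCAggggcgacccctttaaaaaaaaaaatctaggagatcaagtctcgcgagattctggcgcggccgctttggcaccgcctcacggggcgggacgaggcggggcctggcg
Alg13: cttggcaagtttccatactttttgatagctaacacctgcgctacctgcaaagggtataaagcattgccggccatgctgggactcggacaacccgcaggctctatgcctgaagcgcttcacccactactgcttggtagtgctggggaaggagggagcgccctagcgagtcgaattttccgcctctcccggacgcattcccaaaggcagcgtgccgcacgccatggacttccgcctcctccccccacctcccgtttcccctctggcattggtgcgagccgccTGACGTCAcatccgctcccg

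Stk38l, a serine/threonine kinase, rose by 0.41 (adjusted p = 0.028), and Alg13, a subunit of an N-glycosylation enzyme, rose by 0.28 (adjusted p = 0.035). Windows were at hand for 120 of the 149 genes called higher. A half-site was present in 33 of them (27.5%) and the palindrome in 2 (1.67%). Over 14664 tested genes with a window the shares were 29.6% and 2.93%. In this window the shares among the genes called higher were not above those of all tested genes.

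Of 11 tested genes of the hormonal axis of the Sertoli cell 1 was called, Inha, against 0.873% of all genes. An unadjusted p under 0.05 was found for 5 of the 11 (45.5%), against 15% of all tested genes. Inha encodes the inhibin α chain, which lowers FSH secretion from the pituitary. It read 11, 10.87, 10.66 and 10.78 in srKO and 10.13, 10.45 and 10.60 as the lowest, median and highest WT values, without overlap. The difference was 0.43 ± 0.09 (adjusted p = 0.028), and against WT replicates 5 to 8 alone it was 0.34 (adjusted p = 0.073). The β chains Inhba (-0.06) and Inhbb (0.05), the FSH receptor Fshr (-0.25, adjusted p = 0.32) and Amh (0.03) were not called.

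Genes that mark Sertoli cell identity had a median of 0.14, with 18 of 24 above 0, but 1 was called. Over all genes 51.9% were above 0 and 0.784% were called higher. An unadjusted p under 0.05 was found for 6 of the 24 (25%), against 15% of all tested genes. Gata1, a transcription factor found in Sertoli cells, read 8.57, 8.48, 8.36 and 8.42 in srKO against 8.02, 8.09 and 8.22 in WT. These ranges do not overlap, and the difference was 0.35 ± 0.07 (adjusted p = 0.017). Nr0b1 (0.30, adjusted p = 0.074), Rhox8 (0.29, adjusted p = 0.11), Dmrt1 (0.25, adjusted p = 0.17), Sox9 (0.16, adjusted p = 0.56) and Wt1 (0.14, adjusted p = 0.39) were above 0 without passing. The Sertoli means were 9.21, 9.22, 9.22 and 9.01 on srKO replicates 1 to 4, so replicate 4 lay within the WT range.

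No member of several other Sertoli lists was called. At an unadjusted p under 0.05 were 6 of 14 androgen-dependent Sertoli genes (42.9%), 6 of 20 WNT genes (30%) and 5 of 21 niche growth factors (23.8%). For junction genes and for granulosa and ovarian genes the shares were 15% and 13.3%, against 15% of all tested genes. For the 20 tested blood-testis barrier junction genes the largest values were 0.38 for Cxadr (adjusted p = 0.24) and -0.26 for Cldn3 (adjusted p = 0.72). For the 21 niche growth factors they were 0.34 for Kitl, the Kit ligand (adjusted p = 0.19), and -0.37 for Bmp4 (adjusted p = 0.29). For the 20 WNT targets and antagonists the highest was Wif1, a secreted WNT inhibitor, at 0.53 (adjusted p = 0.056). For the 14 androgen-dependent Sertoli genes the extremes were Drd4 at 0.60 (adjusted p = 0.062) and Tsx at -0.99 (adjusted p = 0.089). The 15 granulosa and ovarian genes lay between -0.22 and 0.23, with 0.07 for Foxl2 (adjusted p = 0.72), the factor that keeps granulosa cells in their fate.

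Of 20 tested genes of cholesterol synthesis and uptake, 2 were called higher and 0 lower, against 0.784% and 0.0894% of all genes. The list median was 0.06. Scarb1, the receptor that takes up cholesterol from high-density lipoprotein, read 10.35, 10.33, 10.23 and 10.10 in srKO and 9.59, 9.78 and 9.93 as the lowest, median and highest WT values. Dhcr7, the last enzyme of cholesterol synthesis, read 9.04, 9.06, 9.10 and 8.93 against 8.34, 8.54 and 8.69. Neither overlapped, and the differences were 0.48 ± 0.07 (adjusted p = 0.0023) and 0.50 ± 0.08 (adjusted p = 0.0061). The rest of the cholesterol list was flat, from -0.17 for Fdft1 to 0.24 for Srebf2, neither called. No list of fatty acid genes was tested. Among single called genes, picked after their values were seen, the fatty acid transport proteins Slc27a3 (0.50), Slc27a2 (0.44) and Slc27a4 (0.35), the carboxylase Acaca (0.32) and the triglyceride enzyme Dgat2 (0.35) were higher. Acsl6, an acyl-CoA synthetase, and Agpat3, an acyltransferase of phospholipid synthesis, were lower (-0.54 and -0.33).

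Of 17 tested genes of glycolysis and lactate supply, which Sertoli cells use to feed germ cells, 1 was called. Hk2, the hexokinase that traps glucose in the cell, read 9.27, 9.45, 9.37 and 9.21 against 8.68, 9 and 9.12, with a difference of 0.36 ± 0.08 (adjusted p = 0.042). The lactate exporter Slc16a3 was at 0.36 (adjusted p = 0.18) and Ldha at -0.39 (adjusted p = 0.23). Slc2a3, a glucose transporter of germ cells, was lowest at -1.24 (adjusted p = 0.31). The list median was -0.02, and 7 members (41.2%) had an unadjusted p under 0.05, against 15% of all tested genes.

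Of 23 tested genes of the extracellular matrix 1 was called, and the list median was 0.02. It was Col18a1, a basement membrane collagen, which read 8.95, 8.96, 8.96 and 8.74 in srKO against 8.09, 8.25 and 8.44 as the lowest, median and highest WT values, and differed by 0.61 ± 0.08 (adjusted p = 0.00063). Among the genes named for the size of their rise, Pappa, a metalloproteinase that frees insulin-like growth factors from a binding protein, read 8.84, 8.88, 9.07 and 8.42 in srKO against 7.48, 7.92 and 8.18 in WT. The difference was 0.95 ± 0.16 (adjusted p = 0.0061), and no arrays overlapped. Wfdc1, a secreted protein with a protease-inhibitor domain, read 10.28, 10.14, 10.03 and 9.98 against 9.02, 9.33 and 9.60. It differed by 0.79 ± 0.11 (adjusted p = 0.0013). Prss12, a secreted serine protease, differed by 0.68 (adjusted p = 0.0046), and Plac9a by 0.62 (adjusted p = 0.0046). Plac9a has near-identical copies that its probes may not separate.

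Other genes were named for the size of their rise too. Cbarp, which regulates voltage-gated calcium channels, had the smallest adjusted p of all genes. It read 8.20, 8.25, 8.21 and 8.16 in srKO and 7.27, 7.41 and 7.63 as the lowest, median and highest WT values, a difference of 0.78 ± 0.07 (adjusted p = 1.1e-05). The cell adhesion molecule Nrcam read 7.38, 7.55, 7.34 and 7.69 against 6.60, 6.70 and 6.89, a difference of 0.77 ± 0.08 (adjusted p = 4.9e-05). The sodium channel Scn8a read 6.69, 6.80, 6.31 and 6.78 against 5.43, 5.99 and 6.27, a difference of 0.71 ± 0.13 (adjusted p = 0.012). Shisa6, an accessory protein of glutamate receptors, differed by 0.95 (adjusted p = 0.047) with srKO replicate 4 at 6.83, below the highest WT array at 6.97. Ctnnd2 (0.63) was also called. Reln (0.49) and Dab1 (0.44), an adaptor in reelin signalling, were called too, but were picked after their values were seen. No list holding these genes was tested.

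Kcnma1, a calcium-activated potassium channel, read 9.14, 9.30, 9.21 and 8.98 against 8.11, 8.36 and 8.49 on its brighter probe set, a difference of 0.82 ± 0.11 (adjusted p = 0.0012). Its other probe set behaved differently. That one lay at 8.34 to 9.15 on WT replicates 1 to 4, at 4.87 to 5.29 on WT replicates 5 to 8 and at 4.84 to 5.07 in srKO. With the average of both probe sets Kcnma1 was at -0.53 (adjusted p = 0.54), so its rise holds for 1 of 2 probe sets. Among the 166 genes, 10 had more than 1 probe set, and 8 of their 12 further probe sets had the same sign as the one used.

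Regulators outside these groups included Hecw2, a ubiquitin ligase (7.15, 7.14, 7.41 and 7.15 against 6.25, 6.45 and 6.68). Its difference was 0.76 ± 0.11 (adjusted p = 0.0013), with no overlap. Scin, an actin-severing protein, read 6.84, 6.77, 6.43 and 7.43 against 5.58, 5.89 and 6.75, so srKO replicate 3 lay inside the WT range. The difference was 0.89 ± 0.20 (adjusted p = 0.041). Other genes called higher, picked after their values were seen, included the kinase Prkca (0.56), the guanine nucleotide exchange factor Rasgef1b (0.57) and the sorting receptor Sorl1 (0.54). Tgfb1 (0.38) and the chemokine receptor Cxcr4 (0.48) were called higher and picked in the same way.

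The largest fall was in a steroid enzyme of Leydig cells. Hsd3b6 is a 3β-hydroxysteroid dehydrogenase of adult-type Leydig cells, the generation that replaces the fetal one from the second week on. It read 7.49, 6.20, 5.68 and 6.29 in srKO and 7.11, 8.70 and 9.90 as the lowest, median and highest WT values. The only overlap was srKO replicate 1, which lay above WT replicate 4. The difference was -2.27 ± 0.45, a fold of 4.83 (adjusted p = 0.020), and Hsd3b6 was called against each WT set (-2.42 and -2.12). The call was lost without srKO replicate 2 (-2.20, adjusted p = 0.095), without srKO replicate 3 (-2.03, adjusted p = 0.096) and with only srKO and WT in the fit (adjusted p = 0.097). The related Hsd3b1 was at -0.10 (adjusted p = 0.78), and close family members may share probes. Of 10 tested steroidogenic genes Hsd3b6 was the 1 called. Star, which carries cholesterol into mitochondria, had a difference of 0.60 (adjusted p = 0.24). Those of the enzymes Cyp17a1, Cyp11a1 and Hsd17b3 were 0.40, 0.18 and 0.04 (adjusted p = 0.63, 0.69 and 0.97). Of 8 Leydig identity genes, Hsd3b6 was again the 1 called, and Vcam1 followed at -0.57 (adjusted p = 0.11). The mean of these 8 was 7.84 to 8.14 in srKO and 8.10 to 8.71 in WT, a shift that includes Hsd3b6. It was 8.49 to 8.71 on WT replicates 1 to 4 and 8.10 to 8.26 on WT replicates 5 to 8, so srKO lay closer to the latter. The mean was not tested, with or without Hsd3b6.

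The other falls were under 2-fold except for Mir101c. Plbd1, a lysosomal phospholipase B-like protein, read 8.43, 8.62, 9.41 and 8.73 in srKO against 9.37, 9.56 and 9.86 in WT. Replicate 3 overlapped, and the difference was -0.80 ± 0.15 (adjusted p = 0.017). Tmem159 (-0.63), which helps form lipid droplets, the lysosomal glycoprotein Creg1 (-0.60), the death receptor Tnfrsf21 (-0.53), the pro-apoptotic Pmaip1 (-0.51), the transcription factor Sox6 (-0.48), the zinc finger gene Zfp456 (-0.46) and the choline dehydrogenase Chdh (-0.46) were lower. So were the co-chaperone Dnaja4 (-0.40), the activin receptor Acvr1b (-0.37) and the centrosomal Cntln (-0.36). Tmem159 and Creg1 differed more from WT replicates 1 to 4 (-0.91 and -0.85) than from WT replicates 5 to 8 (-0.35 and -0.34), and neither was called against the latter (adjusted p = 0.096 and 0.070).

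Mir101c was named after its value was seen, because it passed 2-fold. Its probe set on chromosome 9 read 5.74, 6.20, 5.00 and 6.11 in srKO and 6.42, 6.73 and 7.13 as the lowest, median and highest WT values. No arrays overlapped, and the difference was -1.02 ± 0.23 (adjusted p = 0.038). Against WT replicates 5 to 8 alone it was -0.83 (adjusted p = 0.13). The array measures RNA of the locus and does not tell the mature miRNA from its precursor. The RefSeq mature form (chr9:3038680-3038698, minus strand, GRCm38.p6) is printed 5′ to 3′ with its seed, bases 2 to 8, in capitals, because the seed is what pairs with target mRNAs.
mmu-miR-101c: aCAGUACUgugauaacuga

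**Figure D3:**
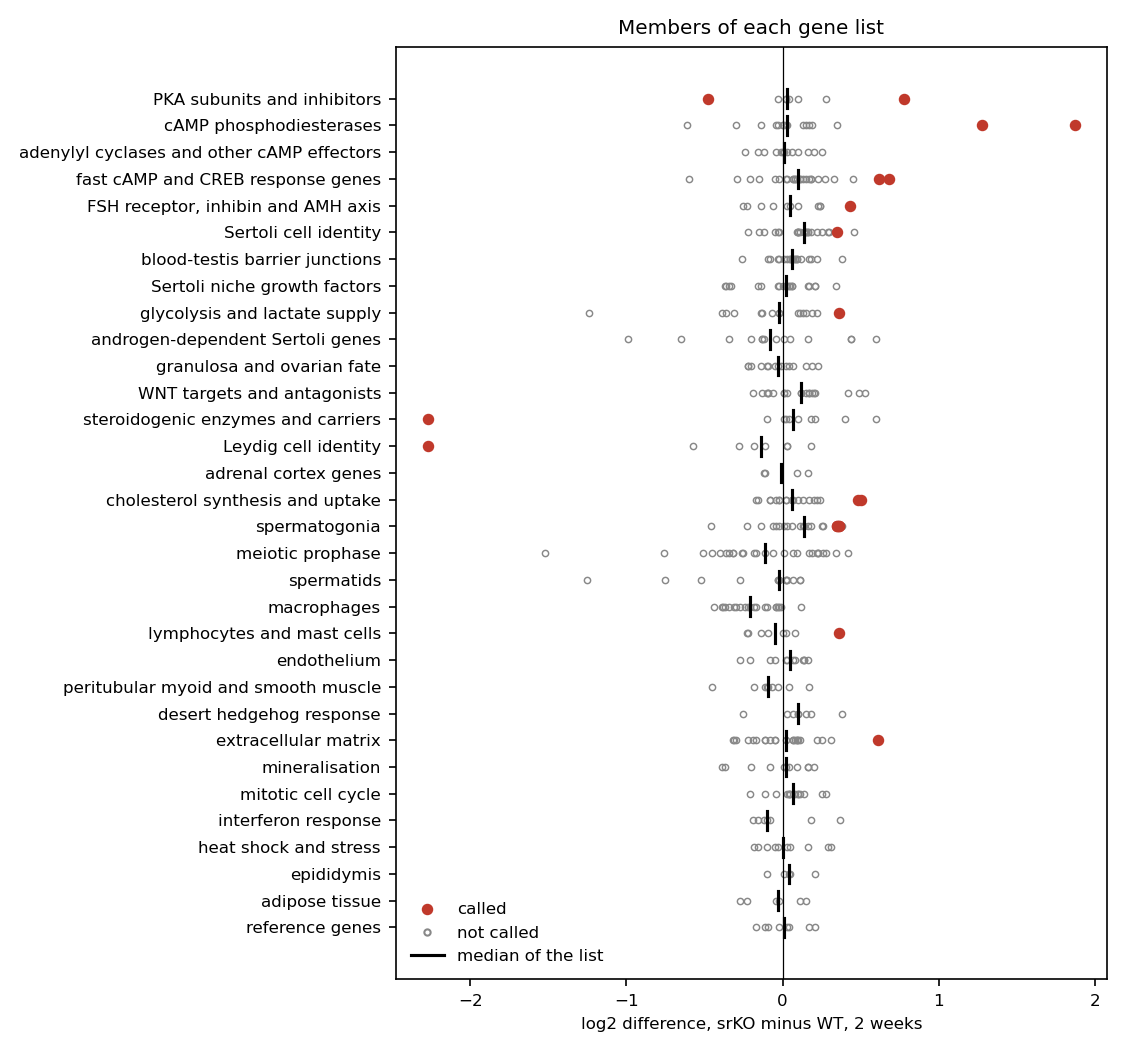
Log2 difference of srKO from WT at 2 weeks for each tested member of the gene lists (horizontal axis); filled red points are called genes, open points are not called, and black ticks are list medians. From 1 to 4 members are called in 12 lists, and the list medians lie between -0.21 and 0.14; the list with 1 tested gene is not drawn.

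Of 22 tested spermatogonial genes 4 were called higher and 0 lower, against 0.784% and 0.0894% of all genes. The list median was 0.14 with 16 members above 0, against 51.9% of all genes above 0. At an unadjusted p under 0.05 were 10 of the 22 (45.5%), against 15% of all tested genes. That count of 4 fell to 0 without srKO replicate 1, 2 or 3, against WT replicates 5 to 8 alone and with only srKO and WT in the fit, and it was 2 without WT replicate 2, 6 or 7. Kit, the receptor that marks differentiating spermatogonia, read 9.85, 9.76, 10 and 9.69 in srKO and 9.34, 9.46 and 9.60 as the lowest, median and highest WT values, a difference of 0.36 ± 0.07 (adjusted p = 0.020). Sox3, a transcription factor of committed spermatogonia, read 7.44, 7.36, 7.43 and 7.15 against 6.90, 6.99 and 7.13, a difference of 0.35 ± 0.06 (adjusted p = 0.012). Neither overlapped, and on both genes srKO replicate 4 was the lowest srKO array. Rhox13, an X-linked homeobox gene of germ cells, differed by 0.36 (adjusted p = 0.031), and Uchl1, a deubiquitinase abundant in spermatogonia, by 0.35 (adjusted p = 0.041). Stem cell genes did not pass: Gfra1 was at -0.02 (adjusted p = 0.98), Zbtb16 at 0.18 (adjusted p = 0.50) and Id4 at -0.46 (adjusted p = 0.29). Kit is also the 1 called of 8 lymphocyte and mast cell genes, while Cpa3, a mast cell protease, was at -0.22 (adjusted p = 0.84).

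Genes of meiotic prophase varied widely within groups, and 0 of 27 were called. At an unadjusted p under 0.05 were 8 (29.6%), against 15% of all tested genes. Of the 27, 12 were above 0, against 51.9% of all genes. The differences ran from -1.52 for Piwil1, the piRNA protein of pachytene cells (adjusted p = 0.34), to 0.42 for Mei1 (adjusted p = 0.12), with Stra8, the gate to meiosis, at 0.28 (adjusted p = 0.23). The list mean was 9.24, 9.21, 8.92 and 9.54 on srKO replicates 1 to 4. On the WT arrays it ran from 8.94 to 9.60 with a median of 9.44, and WT replicates 1, 4 and 5 were at 9.11, 8.94 and 9.22. Of 14 spermatid genes 0 were called, with 1 at an unadjusted p under 0.05 and Ldhc lowest at -1.25 (adjusted p = 0.37). The spermatogonial mean was 8.14, 8.15, 8.27 and 8.06 in srKO against 7.98 to 8.10 in WT, so srKO replicate 4 lay within the WT range. Neither mean was tested. With the meiotic mean added to the fit as a covariate, an alternative added after seeing the data, all 166 genes were still called and 387 were called in all.

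Called genes outside the lists that are known from germ cells, picked after their values were seen, included Fthl17e (6.55, 6.12, 6.55 and 6.35 against 5.48, 5.77 and 6.22) and Xlr3c (7.56, 7.39, 7.66 and 7.37 against 6.62, 6.77 and 7.41). Both belong to X-linked multicopy families whose probes may read several members, and both overlapped with WT. Their differences were 0.63 ± 0.14 (adjusted p = 0.032) and 0.62 ± 0.13 (adjusted p = 0.031). The meiotic cohesin Rad21l (0.56), M1ap (0.57), Zyg11a (0.54), the X-linked homeobox gene Esx1 (0.54) and Bnc1 (0.47) were also higher. Of 14 genes of the mitotic cell cycle list 0 were called, with 2 at an unadjusted p under 0.05. Mcm6 (0.28, adjusted p = 0.12) and Mki67 (0.04, adjusted p = 0.85) are examples. Outside that list, and likewise picked after their values were seen, the phosphatase Cdc25a (0.45), the condensin subunit Ncapg2 (0.39), the replication factors Cdc6 (0.36) and Orc1 (0.36) and the repair gene Brca1 (0.31) were called higher. No list holding them was tested.

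**Figure D4:**
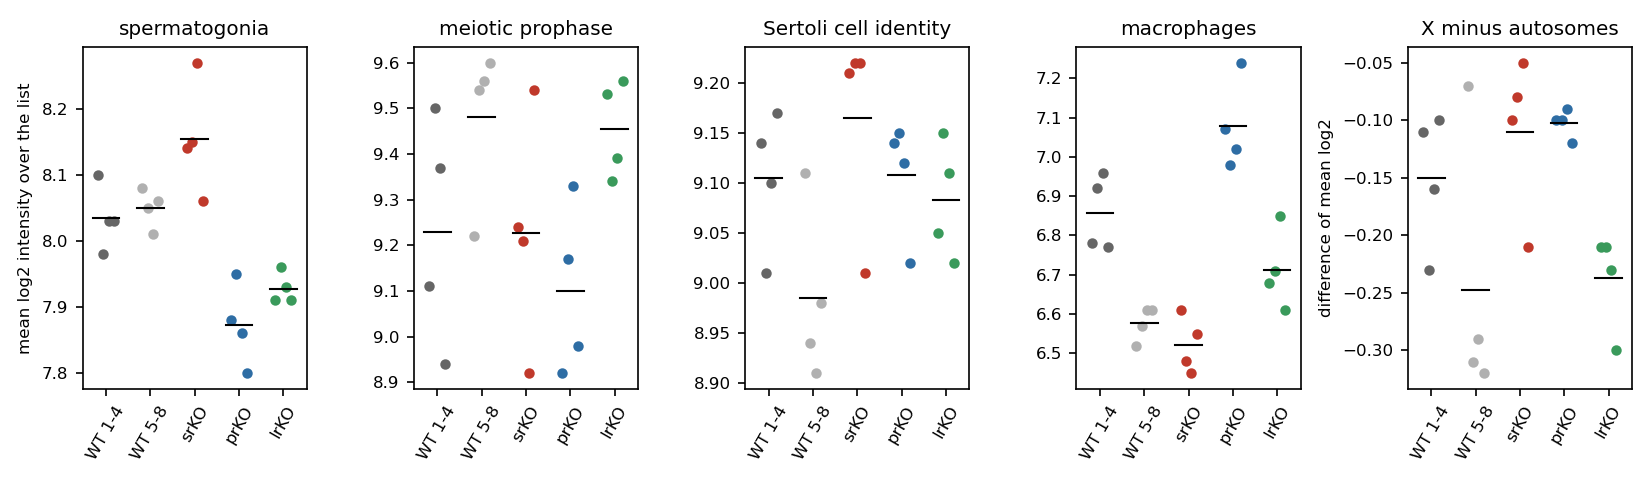
Mean log2 intensity over the spermatogonial, meiotic prophase, Sertoli identity and macrophage lists, and the mean of X-linked minus autosomal genes (vertical axes), on each array at 2 weeks; points are arrays and lines group means. The srKO arrays lie at 8.06 to 8.27 for spermatogonia and spread from 8.92 to 9.54 for meiotic prophase.

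Markers of other cell types gave no calls apart from those named. Of 21 macrophage genes 1 was above 0 (median -0.21), against 51.9% of all genes, and 0 were called. An unadjusted p under 0.05 was found for 6 (28.6%), against 15% of all tested genes. Csf1r, their growth factor receptor, was at -0.39 (adjusted p = 0.14). The macrophage mean was 6.45 to 6.61 in srKO, 6.77 to 6.96 on WT replicates 1 to 4 and 6.52 to 6.61 on WT replicates 5 to 8, so the low values are shared with the latter. Endothelial (median 0.05), peritubular myoid (-0.09), hedgehog response (0.10), interferon (-0.10), mineralisation (0.02), stress (0.00), epididymis (0.04) and adipose lists (-0.03) had no called member, nor had the 8 reference genes (0.01). In all, 21 of 33 lists had no call. They hold 260 tested members, of which 47 had an unadjusted p under 0.05, against 15% of all tested genes. Markers of tissue around the cords moved with single arrays. WT replicate 4 had the highest matrix mean, 10.07, against at most 9.43 on the other WT arrays, and WT replicate 1 the highest epididymal mean, 5.33. The part of either in the results was not tested, and the called count without these arrays was 224 and 145.

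The 3 Cre lines were set side by side at 2 weeks. Both phosphodiesterases and both cholesterol genes called higher in srKO were higher still in prKO. Pde7b differed from WT by 3.04 in prKO and by -0.38 in lrKO, and the prKO arrays lay at 9.46 to 10.46. The difference srKO minus prKO was -1.16 ± 0.23 (adjusted p = 0.0025). Pde10a followed, with srKO minus prKO at -0.75 ± 0.16 (adjusted p = 0.0038), as did Scin (-1.13, adjusted p = 0.0034), Scarb1 (-0.36, adjusted p = 0.0077) and Dhcr7 (-0.34, adjusted p = 0.024). Prkar1a was 0.29 ± 0.08 higher in srKO than in prKO (adjusted p = 0.025), where it read 8.04 to 8.33, and in lrKO it read 8.98 to 9.08. That call against prKO was lost with only the groups compared in the fit (adjusted p = 0.061), without srKO replicate 3 (0.29, adjusted p = 0.059) and without srKO replicate 4 (0.25, adjusted p = 0.081). Prkar2b, Cbarp, Pappa and Sik1 had similar values in srKO and prKO, with srKO minus prKO at -0.06 ± 0.14, -0.19 ± 0.08, 0.00 ± 0.19 and -0.04 ± 0.13. None of these differences passed (adjusted p = 0.83, 0.14, 1.0 and 0.90), which does not show that they are equal.

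For other genes called higher the order was the reverse, and these were of several kinds. The difference srKO minus prKO was 0.87 ± 0.17 for Ctnnd2 (adjusted p = 0.0022) and 0.29 ± 0.08 for the Sertoli cell factor Gata1 (adjusted p = 0.019). Among genes known from germ cells, the srKO level was above prKO for Sox3 (0.55 ± 0.07, adjusted p = 6.1e-05), Kit (0.44 ± 0.08, adjusted p = 0.0017), Fthl17e (0.67 ± 0.16, adjusted p = 0.0082) and Xlr3c (0.65 ± 0.15, adjusted p = 0.0093). The same 4 were above lrKO (0.34, 0.54, 0.65 and 0.67). Hsd3b6 was lower in srKO than in prKO (-1.77 ± 0.52, adjusted p = 0.031) and lrKO (-2.28, adjusted p = 0.028), where it read 8.00 to 8.49 and 7.69 to 9.46. Both of these calls were lost without srKO replicate 2 (adjusted p = 0.075 and 0.090) and without srKO replicate 3 (adjusted p = 0.097 and 0.10), and the one against prKO also without srKO replicate 4 (adjusted p = 0.064). Among the 149 genes called higher, srKO was above prKO past the threshold for 69 and below it for 14, and above lrKO for 103. Over all genes the shares were 4.85% and 6.9% against prKO and 1.54% against lrKO. Of the 17 called lower, 6 were lower than in prKO and 9 lower than in lrKO, against 6.9% and 0.405% of all genes. These contrasts share the srKO arrays that chose the genes, so the counts are a description only.

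At 2 months part of the pattern was kept. Pde7b (1.46, adjusted p = 8.4e-07), Prkar2b (1.24, adjusted p = 1.5e-10), Cbarp (0.95), Kcnma1 (0.97) and Wfdc1 (1.40) were higher in srKO than in WT of that age. Wfdc1, Scin, Prkar2b and Inha had larger differences at 2 months than at 2 weeks, by 0.61 ± 0.16, 1.01 ± 0.24, 0.46 ± 0.16 and 0.92 ± 0.15 (adjusted p = 0.0074, 0.0023, 0.046 and 2.1e-05). The change of Prkar2b between ages missed the threshold without any one srKO array (adjusted p = 0.072, 0.065, 0.058 and 0.083 without replicates 1 to 4), and the adjusted p was 0.25 with only WT replicates 1 to 4. Scn8a and Sik1, higher in srKO at 2 weeks, were lower than WT at 2 months, at -0.77 (adjusted p = 3.4e-05) and -0.41 (adjusted p = 0.0078). Their change between ages was -1.47 ± 0.19 and -1.03 ± 0.17 (adjusted p = 6.9e-07 and 2.7e-05). Ctnnd2 and Rhox13 turned in the same way, to -0.40 (adjusted p = 0.0096) and -0.32 (adjusted p = 0.0097), with changes of -1.03 and -0.67 (adjusted p = 2.6e-05 and 0.00033). Pappa, Nr4a1 and Hecw2 were not called at 2 months (-0.34, -0.18 and 0.01, adjusted p = 0.20, 0.39 and 0.95). Their change between ages was -1.29 ± 0.26, -0.86 ± 0.20 and -0.75 ± 0.13 (adjusted p = 0.00048, 0.0018 and 6.1e-05). Among the genes lower at 2 weeks, Tmem159 (0.47), Tnfrsf21 (0.49), Acvr1b (0.27) and Mir101c (0.76) were higher than WT at 2 months (adjusted p = 0.0064, 0.0023, 0.021 and 0.012), while Hsd3b6 (-1.17), Plbd1 (-1.33), Sox6 (-0.74), Dnaja4 (-0.81) and Agpat3 (-0.34) were lower at that age too (adjusted p = 0.022, 4.3e-07, 6.6e-08, 2.2e-07 and 0.00026). Prkar1a itself was 0.24 above WT at 2 months (adjusted p = 0.013) and 0.48 below it at 2 weeks. Among the 149, the difference was lower at 2 months for 70 and higher for 7, against 8.76% and 8.49% of all genes. Among the 17, it was higher for 10 and lower for 0. The ages share the 2-week arrays that chose the genes, so these counts too are a description.

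**Figure D5:**
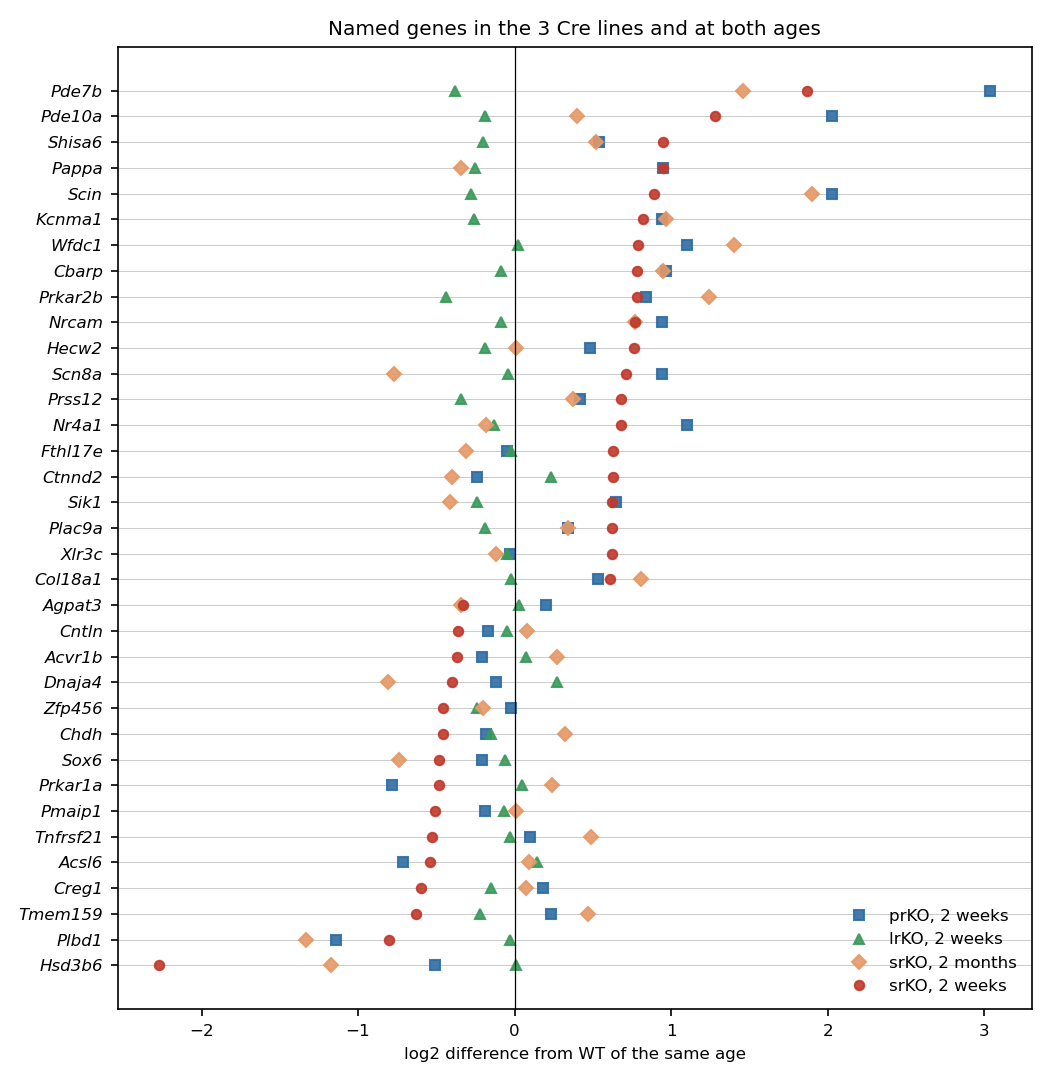
Log2 difference from WT of the same age (horizontal axis) for Prkar1a and the genes with the largest rises and falls, in srKO, prKO and lrKO at 2 weeks and in srKO at 2 months; each symbol is a fitted group difference. Pde7b lies at 1.87 in srKO, 3.04 in prKO, -0.38 in lrKO and 1.46 in srKO at 2 months.

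The firmness of the named calls varied. Of the 45 called genes that the naming rule or the 2-fold limit brought in, 14 were called under all 26 alternatives: Prkar1a, Pde7b, Pde10a, Pappa, Wfdc1, Cbarp, Prkar2b, Nrcam, Hecw2, Prss12, Plac9a, Col18a1, Dhcr7 and Scarb1. With 1 array left out, 15 were called each time, which adds Kcnma1. Leaving out srKO replicates 1, 2, 3 and 4 in turn ended 29, 29, 25 and 4 of the 45 calls. Leaving out WT replicates 1 to 8 in turn ended 13, 20, 18, 2, 0, 17, 15 and 4. With only srKO and WT in the fit 29 of the 45 calls were lost, among them Hsd3b6, Nr4a1, Sik1, Inha, Kit and Sox3 (adjusted p = 0.097, 0.088, 0.10, 0.13, 0.083 and 0.063). Against WT replicates 5 to 8 alone 28 were lost, and against WT replicates 1 to 4 alone 1.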

How the data were processed

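Whole-testis RNA of 39 mice was measured on 1-colour Affymetrix arrays. The authors deposited log2 intensities made with RMA, per the submitters' processing notes; no version and no genome build are given in the sources used here. Of 41345 probe sets 23521 had 1 gene symbol in GEO's platform annotation, 1814 several and 16010 none; 23328 of the first matched a RefSeq gene, and they stand for 22180 genes. Analysis used limma 3.58.1 in R 4.3.3. Each gene was read from its brightest probe set, by the mean of the 39 arrays, and genes with a group mean above the 25th percentile of all values (4.62) were tested. The main fit held the 20 arrays of 4 genotypes at 2 weeks without covariates, and ages were compared in 1 fit of 8 groups; the threshold was an adjusted p of 0.05. Scripts were tested on simulated data.

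The naming rule took Prkar1a, then the 20 called genes that rose most and the 15 that fell most (unnamed gene models, small RNAs and chemoreceptor genes passed over), and every called member of a list or, where a list had none, its 2 members with the largest difference. Not all of those 2 members per list are named in the text. Other list members and other called genes are named beside the rule. The comparison, members and gene lists were chosen with earlier results of these data known. Precision is limited by how many arrays there are. The labels call the samples biological replicates, so p-values measure the spread between these animals. Replicate numbers were checked for pairing: srKO and WT arrays of one number had correlated deviations of -0.62 to 0.15, so they were not paired. No arrays held identical values. Medians of the arrays lay at 5.98 to 6.02. The srKO arrays correlated with one another at 0.975 to 0.995, and the lowest correlation between WT arrays was 0.951. On average srKO replicate 4 correlated better with WT replicates 5 to 8 (0.989) than with the other srKO arrays (0.981). Alternatives were filters, probe averaging, normalizations, array weights, other fits, single WT sets and leaving out each array.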

Additional observations from a re-analysis of the deposited data

Results flagged for a closer look

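In 5 of 88 groups of arrays tested for a single array apart from the rest, where chance gives about 1 in 20, one array stood apart. Hecw2 read 7.41 on srKO replicate 3, with the next at 7.15. Nr4a1 read 8.34 on WT replicate 8, with the next at 7.81. Col18a1 read 8.74 on srKO replicate 4 (nearest 8.95), Tmem159 read 7.91 on srKO replicate 3 (nearest 8.07), and Zfp456 read 5.47 on WT replicate 7 (nearest 5.90).

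The srKO difference from WT changed between ages for 21 of 35 genes tested by a limma interaction with adjusted p-values, against 8.76% of all genes lower and 8.49% higher at 2 months. The change at 2 months minus that at 2 weeks was above 0 for Prkar1a (0.72), Scin (1.01), Wfdc1 (0.61), Prkar2b (0.46), Tmem159 (1.10), Creg1 (0.67), Acsl6 (0.63), Tnfrsf21 (1.03), Pmaip1 (0.52), Chdh (0.78), Acvr1b (0.64) and Cntln (0.44). It was below 0 for Pde10a (-0.89), Pappa (-1.29), Hecw2 (-0.75), Scn8a (-1.47), Nr4a1 (-0.86), Ctnnd2 (-1.03), Fthl17e (-0.94), Xlr3c (-0.75) and Sik1 (-1.03). These genes were chosen on their values at 2 weeks.

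Of 13417 tested probe sets with no or several gene symbols, 30 were called, 29 higher and 1 lower in srKO. They have no single gene name and entered no comparison.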

How the results depend on the processing

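The 166 called genes (149 higher, 17 lower) became 2234 with array weights (1110 and 1124), 39 with srKO and WT alone in the fit (38 and 1), and 265 with all 8 groups (98 lower). Against WT replicates 1 to 4 there were 875 (464 and 411), and against WT replicates 5 to 8 there were 92 (85 and 7). With the WT sets as separate groups 321 were called (256 and 65), and with the meiotic mean as a covariate 387 (240 and 147); both were added after seeing the data. The replicate number as a block, which does not pair these arrays, gave 595 (318 and 277). No srKO array correlated best with the WT array of its number. With 1 array left out the counts ran from 33 to 362 (31 to 254 higher, 1 to 108 lower). Filters, probe averaging, normalization and trend settings kept the count within 1.5 times. The 4 called genes at 2-fold or more became 275 with array weights, 41 against WT replicates 1 to 4, 39 with the block, 18 with 8 groups, 9 with the covariate, 2 with srKO and WT alone, and 2 to 24 with 1 array left out. Prkar1a was called in every alternative, from -0.58 to -0.38.

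For srKO against lrKO (370 genes) the count was 2762 with array weights, 1027 with the groups compared alone, 1153 with 8 groups, 713 and 913 with WT replicates 1 to 4 and 5 to 8, and 121 to 1015 with 1 array left out. Array weights gave 3650 for srKO against prKO (2234) and 4975 for the ages (3278).

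Direction turned for Kcnma1 with averaged probe sets (-0.53) and otherwise for uncalled genes. Against WT replicates 5 to 8 these were Cldn3 (0.06), Esr1 (0.03), Emcn (0.17), Cdh5 (0.06), Tagln (0.21), Smo (0.17), Adam7 (0.13), Fabp4 (0.32) and Slc4a1 (-0.13). Adcy10 turned against WT replicates 1 to 4 (0.11) and with the block (0.11), and Tagln (0.05) and Adam7 (0.02) with array weights. With 1 array left out the ranges were -0.37 to 0.22 for Fabp4 (above 0 without WT replicate 2), -0.02 to 0.09 for Slc4a1 and -0.27 to 0.04 for Tagln (above 0 without WT replicate 4). The cause was not tested for any of these.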

Other observations

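Calls were counted by chromosome after the list of called genes was seen. Of 732 tested X-linked genes 15 were higher in srKO (2.05%) and 0 lower, and of 18095 autosomal genes 134 were higher (0.741%) and 17 lower. No test was made of the difference. The 15 were Esx1 (0.54), Fthl17e (0.63), Xlr3c (0.62), Bclaf3 (0.42), Dusp9 (0.39), Map7d2 (0.39), Elf4 (0.37), Fam90a1b (0.37), Rhox13 (0.36), Gata1 (0.35), Sox3 (0.35), Phka1 (0.34), Zmym3 (0.32), Alg13 (0.28) and Taf1 (0.27). They include germ cell genes (Fthl17e, Xlr3c, Rhox13, Sox3, Esx1), a Sertoli cell factor (Gata1) and broadly used genes such as Taf1, a subunit of the general transcription factor TFIID, and Phka1, a subunit of phosphorylase kinase.

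The median difference of X-linked genes was 0.06, with 68.6% above 0, against 0.00 and 51.1% for autosomal genes. It was 0.01 against WT replicates 1 to 4 and 0.13 against WT replicates 5 to 8. In prKO the X-linked median was 0.06 and in lrKO -0.04. The mean of X-linked minus autosomal genes was -0.10, -0.08, -0.05 and -0.21 on srKO replicates 1 to 4. On WT replicates 1 to 8 it was -0.11, -0.23, -0.16, -0.10, -0.07, -0.31, -0.29 and -0.32. The arrays with the highest values, srKO replicate 3 and WT replicates 1, 4 and 5 among them, were also low in the meiotic prophase mean, and its part in the X-linked values was not tested.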
